A study of Mus musculus with 2 samples.

Results

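XY germ cells sorted from foetal mouse testes after 72 h of organ culture in the vehicle DMSO were compared with XY germ cells sorted after 24 h in DMSO. The comparison was defined by the labels and not by measured values, and it took 8 of the 40 germ cell libraries of the series, 4 libraries at 24 h (replicates 2, 3, 4 and 5) and 4 at 72 h (replicates 2, 4, 5 and 6). Embryos, labelled WT, came from Swiss dams and sires carrying an Oct4-eGFP reporter on a 129svJT2 background, and gonads were explanted with their mesonephros at E12.5, when testis cords allow XY gonads to be recognised. Each library held germ cells pooled from 6 to 15 gonads and gated as GFP-positive and viable. An explanted testis has no blood flow and no pituitary input, so the 2 times are times in culture, and the gate selects cells that still carry the reporter. The other groups of the series, used below only to place these changes, were XY germ cells at 0 h (no culture), XX germ cells after 24 h and 72 h in DMSO, XY germ cells kept for 24 h with BGJ398/Infigratinib at 500 nM, which inhibits FGF receptors (FGFRi), and, for an alternative 24 h level only, XY germ cells kept for 24 h with the MEK inhibitor PD0325901 at 500 nM (MEKi), with 4 libraries each.

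In this window of foetal life, male germ cells leave the migratory, pluripotency-related state of primordial germ cells and stop dividing. They then become prospermatogonia, cells that methylate their genome anew and use PIWI-interacting RNAs (piRNAs) to direct DNA methylation to transposons. Germ cells of the foetal ovary enter meiosis over the same days.

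The libraries were made in 2 pools, and the pools follow time. XY 24 h DMSO was in pool 1 and XY 72 h DMSO in pool 2, so a difference between the 24 h and 72 h germ cells and a difference between pools cannot be told apart from these 8 libraries. 2 other comparisons bear on it and are given beside the results. The XY 24 h FGFRi libraries were in pool 2, so XY 72 h DMSO could be compared with 24 h germ cells inside that pool, although these 24 h cells had met an inhibitor and the 72 h libraries are the same ones. XX germ cells at 24 h and 72 h were split over the same pools as the XY libraries, so the XY change less the XX change (the interaction) is free of any shift that acts alike on both sexes. Libraries also shared sample indexes across pools, and the 24 h libraries shared theirs with XY 72 h MEKi libraries and the 72 h libraries with XY 0 h libraries. A leak of 3.25%, estimated from Y-linked counts in XX libraries, would account for 2.98 to 5.23% of the counts of the 24 h libraries and 2.55 to 5.95% of the 72 h libraries, and results without these counts were computed as an alternative.

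Total UMI-collapsed counts ran from 2044852 to 3781288 at 24 h and from 1462982 to 2309884 at 72 h. Libraries were alike within a time (Pearson's r of log2 CPM from 0.9566 to 0.9788 at 24 h and from 0.9536 to 0.9679 at 72 h) and less alike between times (0.8339 to 0.8864). Within each group 1 library was more often than the others the one nearest to the other time. Replicate 3 of the 24 h group was the 24 h library nearest to the 72 h level in 1207 of the 2436 genes that were higher at 72 h (49.5%) and in 928 of the 1728 that were lower (53.7%), and the fit gave it a sample weight of 0.6012. Replicate 6 of the 72 h group was the 72 h library nearest to the 24 h level in 38.3% of the higher and 40.6% of the lower genes. Without 24 h replicate 3, 2485 genes were higher and 1806 lower, and without 72 h replicate 6 there were 2521 and 1678. The reading of bulk libraries has a further limit that holds throughout, since a lower level of a transcript can come from fewer cells that carry it or from less of it per cell, and the pair cannot be told apart.

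Germ cell identity was checked with 12 markers, which together held 0.447 to 0.572% of the counts at 24 h and 0.371 to 0.407% at 72 h. Called at a fold of 1.5 with an FDR under 0.05 as differentially expressed (DEGs) were 3 higher (Ddx4, Mael and Tdrd1) and 5 lower ones (Dppa3, Dppa5a, Kit, Prdm1 and Tfap2c), and 4 did not pass, with a median log2 fold change of -0.65. Dazl, an RNA-binding protein of germ cells, was at 1451 ± 194 CPM (counts per 1000000, mean ± SD, n = 4 here and below) at 24 h and 897 ± 41.8 CPM at 72 h, and Ddx4, the germ cell helicase also called VASA, was at 239.6 ± 40.1 and 530.3 ± 33.8 CPM. Pou5f1, which encodes OCT4 and drives the reporter, was at 94.9 ± 11.7 and 61.9 ± 2.94 CPM (not a DEG). Markers of other cells were low but not still. The 32 Sertoli and stromal markers summed to 0.0112 to 0.0302% of the counts at 24 h and 0.0233 to 0.0396% at 72 h. Of the 24 that could be tested, 8 were higher and 1 was lower, where 16.0% of all tested genes were higher and 11.3% lower (4 of 18 higher after thinning all libraries to equal depth), with the collagen gene Col1a2 going from 23.7 ± 7.59 to 97.4 ± 40.2 CPM, while the Sertoli cell gene Sox9 was at 24.0 ± 24.5 and 10.6 ± 4.08 CPM (not a DEG) and Amh had 5 counts in all 24 h libraries and 1 in all 72 h libraries. Of 11 endothelial markers 4 could be tested, with Flt1, Cdh5 and Egfl7 higher and Pecam1, an adhesion molecule also made by germ cells, lower, and of 19 blood markers 9 could be tested, with 3 higher and none lower. The endothelial list summed to 0.00528 to 0.0112% of the counts at 24 h and 0.00964 to 0.0115% at 72 h, and the blood list to 0.00455 to 0.0141% and 0.00641 to 0.0109%. The called blood markers were Alas2 (11 and 63 counts in all), Cd68 (17 and 102) and Fcer1g (6 and 47), while Csf1r had 5 and 15 counts and Adgre1 and Pf4 had 0 in all 8 libraries. The tested globin genes went the other way without being called, among them Hba-a1 (mean 32.0 and 20.4 CPM) and Hbb-y (17.8 and 4.66 CPM). The median log2 fold change of the tested blood markers was -0.585. The part of these cells in the results below was not tested.

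The comparison asked which transcripts differed between germ cells cultured for 72 h and for 24 h. Of 15252 genes tested against a fold change of 1.5 (limma treat, FDR under 0.05), 4164 were differentially expressed genes (DEGs, 27.3% of those tested), 2436 higher at 72 h (16.0%) and 1728 lower (11.3%). Upper-quartile scaling in place of TMM moved this split to 2930 higher and 1280 lower. The higher DEGs moved further than the lower ones. Their median absolute log2 fold change was 2.24, against 1.45 for the lower DEGs, and 263 of them differed more than 16-fold, against 20 lower DEGs. The 4 and 4 libraries did not overlap in CPM in 2283 of the higher and 1670 of the lower DEGs, where 48.5% of all tested genes did not overlap. Inside pool 2, against the FGFRi germ cells, 2011 of the 2436 higher and 1334 of the 1728 lower DEGs were called in the same direction, 2 were called in the opposite direction, and 28.2% of all genes were called. For scale, the preceding 24 h of culture, between 0 h and 24 h within pool 1, gave 449 DEGs (2.94%, with 1.61% higher and 1.33% lower).

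**Figure D1:**
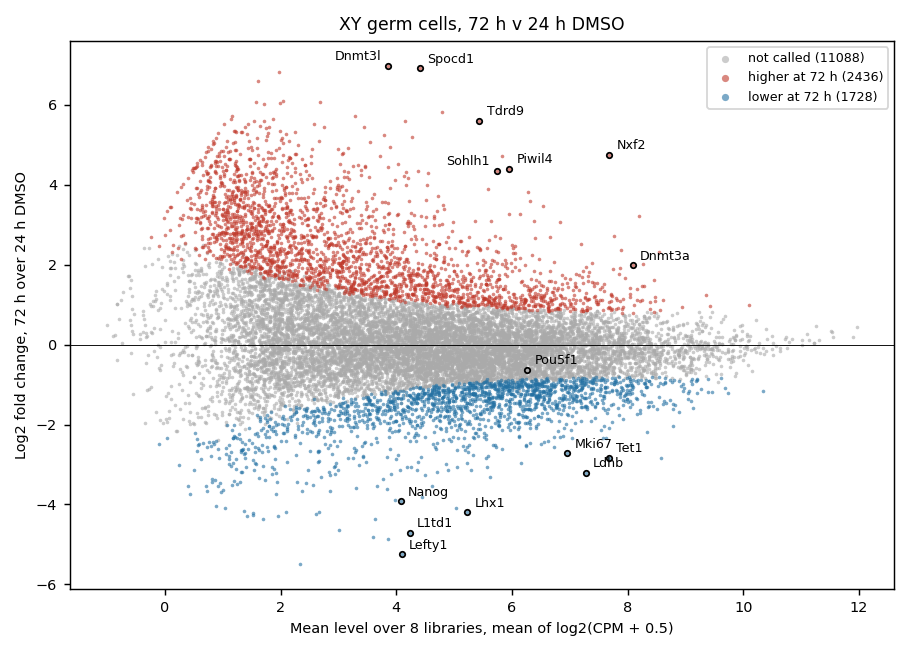
Each point is 1 of the 15252 genes tested, placed by its mean level over the 8 libraries (x axis, mean of log2 CPM with 0.5 added) and its log2 fold change at 72 h over 24 h (y axis), with the 2436 higher DEGs in red, the 1728 lower DEGs in blue and other genes in grey. Named genes include Dnmt3l and Spocd1 at the top and Lefty1 and L1td1 near the bottom, and points past a log2 fold change of 4 are mostly red.

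Most listed genes of the machinery that silences transposons in the nucleus of prospermatogonia were higher at 72 h. Of 15 genes of nuclear piRNA silencing, 11 were higher at 72 h, 1 was lower and 3 did not pass, against 16.0% higher and 11.3% lower of all genes, with a median log2 fold change of 2.69 over the 15 (0.02 over all genes). Inside pool 2 the same counts were 11, 1 and 3, against 16.6% and 11.6% of all genes. The list summed to 0.192 to 0.234% of the counts at 24 h and 0.496 to 0.519% at 72 h. The promoter windows of the 3 genes of the silencing and DNA methylation lists that rose most are the 300 bases before the start of the GENCODE canonical transcript in GRCm39, on the plus strand (for Dnmt3l a start inside the gene, downstream of that of longer transcripts), and capitals mark the letters CACGTG (an E-box) or CCAAT on either strand. Dnmt3l lies at chr10:77885376-77885675, Spocd1 at chr4:129822261-129822560 and Tdrd9 at chr12:111937665-111937964.
Dnmt3l: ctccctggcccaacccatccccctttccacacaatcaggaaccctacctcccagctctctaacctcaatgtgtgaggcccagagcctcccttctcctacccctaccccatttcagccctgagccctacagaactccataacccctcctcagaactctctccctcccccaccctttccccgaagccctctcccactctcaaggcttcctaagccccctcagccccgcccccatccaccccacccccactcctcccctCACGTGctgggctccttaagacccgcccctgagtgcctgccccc
Spocd1: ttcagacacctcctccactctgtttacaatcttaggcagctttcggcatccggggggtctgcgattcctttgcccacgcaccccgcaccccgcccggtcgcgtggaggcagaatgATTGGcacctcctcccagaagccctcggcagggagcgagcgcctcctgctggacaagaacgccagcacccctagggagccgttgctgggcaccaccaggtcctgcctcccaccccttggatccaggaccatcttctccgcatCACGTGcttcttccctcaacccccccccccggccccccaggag
Tdrd9: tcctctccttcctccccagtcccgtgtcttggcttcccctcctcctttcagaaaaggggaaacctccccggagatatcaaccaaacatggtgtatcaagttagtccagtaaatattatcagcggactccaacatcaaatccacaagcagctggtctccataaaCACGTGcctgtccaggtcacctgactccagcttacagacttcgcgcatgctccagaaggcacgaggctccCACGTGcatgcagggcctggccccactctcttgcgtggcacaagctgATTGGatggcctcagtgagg

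All 3 windows held CACGTG, once in Dnmt3l and Spocd1 and 2 times in Tdrd9. The motifs searched, on both strands, were the E-box CACGTG, the CCAAT box, the cell cycle homology region TTTGAA, the E2F motif TTCCCGC and the cyclic AMP motif TGACGTCA. CACGTG was in 5 of 15 windows of the nuclear piRNA silencing list (33.3%, Mael, Morc2a, Mov10l1, Spocd1 and Tdrd9) and in 6 of 21 of the piRNA biogenesis list (28.6%), against 8.17% of the windows of all tested genes and 10.5% of those of higher DEGs. It was in 18.8% of 48 windows of the meiosis list. The CCAAT box was in 66.7% of the nuclear piRNA silencing windows against 39.7% of all, and TTTGAA in 33.3% against 17.1%, while the E2F motif was in 1 of these 15 windows and TGACGTCA in none. These shares describe letters in a window, with no test. The Dnmt3l window held 4 CpG sites, against a median of 13 in all tested genes, 17 in the Spocd1 window and 9 in the Tdrd9 window.

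Dnmt3l, the catalytically inactive partner that stimulates the de novo DNA methyltransferases, was at 0, 3.65, 1.03 and 1.35 CPM in the 24 h libraries and at 135, 177, 131 and 107 CPM in the 72 h libraries. The groups lay far apart, and the gene rose 126-fold (log2 fold change 6.98 ± 0.65, SE, FDR = 6.3e-12, and 6.40 to 7.61 with 1 library left out, the highest without 24 h replicate 5). Inside pool 2 its log2 fold change was 4.63, from 5.47 ± 2.05 CPM in the 24 h FGFRi libraries. Spocd1, a nuclear partner of the PIWI protein MIWI2 needed for piRNA-directed DNA methylation, was at 0.518, 10.4, 0.688 and 1.62 CPM at 24 h and at 181, 219, 218 and 168 CPM at 72 h. Replicate 3 was the highest of the 24 h libraries and all 72 h libraries were at least 168 CPM. The rise was 121-fold (log2 6.92 ± 0.51, FDR = 3.18e-15) and 5.07 on the log2 scale inside pool 2. With so few counts at 24 h its size was uncertain, with a log2 fold change of 7.34 without 24 h replicate 3, 6.09 in edgeR and 8.36 with shared-index counts removed. Removing those counts moved the fold change of 39 of 129 called genes named here by over 1.5 times, in all 39 further from no change.

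Piwil4, which encodes MIWI2 itself, was at 12.4, 33.3, 9.28 and 10.6 CPM at 24 h and 274, 265, 276 and 231 CPM at 72 h, a 21.2-fold rise (FDR = 1.09e-20). Tdrd9, a helicase that works with MIWI2, was at 3.11, 16.1, 3.44 and 7.03 CPM at 24 h and 281, 348, 276 and 255 CPM at 72 h, a 48.6-fold rise (FDR = 1.99e-15). For both genes the 72 h libraries were alike and the 24 h libraries were low, with replicate 3 highest. Gtsf1, a small zinc-finger protein that PIWI proteins need for silencing, went from 17.1, 62.5, 11.3 and 18.1 CPM to 306, 231, 278 and 262 CPM, 14.1-fold. Tex15, a further effector of MIWI2, and Morc1, a chromatin ATPase of transposon silencing, rose 9.27-fold (101 ± 35.3 to 873 ± 34.2 CPM) and 6.45-fold (43.5 ± 21.8 to 255 ± 16.4 CPM). Mael, a piRNA factor of the germ granules, rose 6.58-fold, to 547 ± 55.1 CPM. Ctcfl, the germline paralogue of CTCF, had 3 counts in all 24 h libraries and 57 in all 72 h libraries, a ratio of 25.9 (95% counting interval 8.42 to 129). Hells, a chromatin remodeller that supports maintenance methylation and is abundant in dividing cells, was the single member to fall, from 1215 ± 216 to 566 ± 54.9 CPM (log2 -1.08 ± 0.12, FDR = 0.000542).

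**Figure D2:**
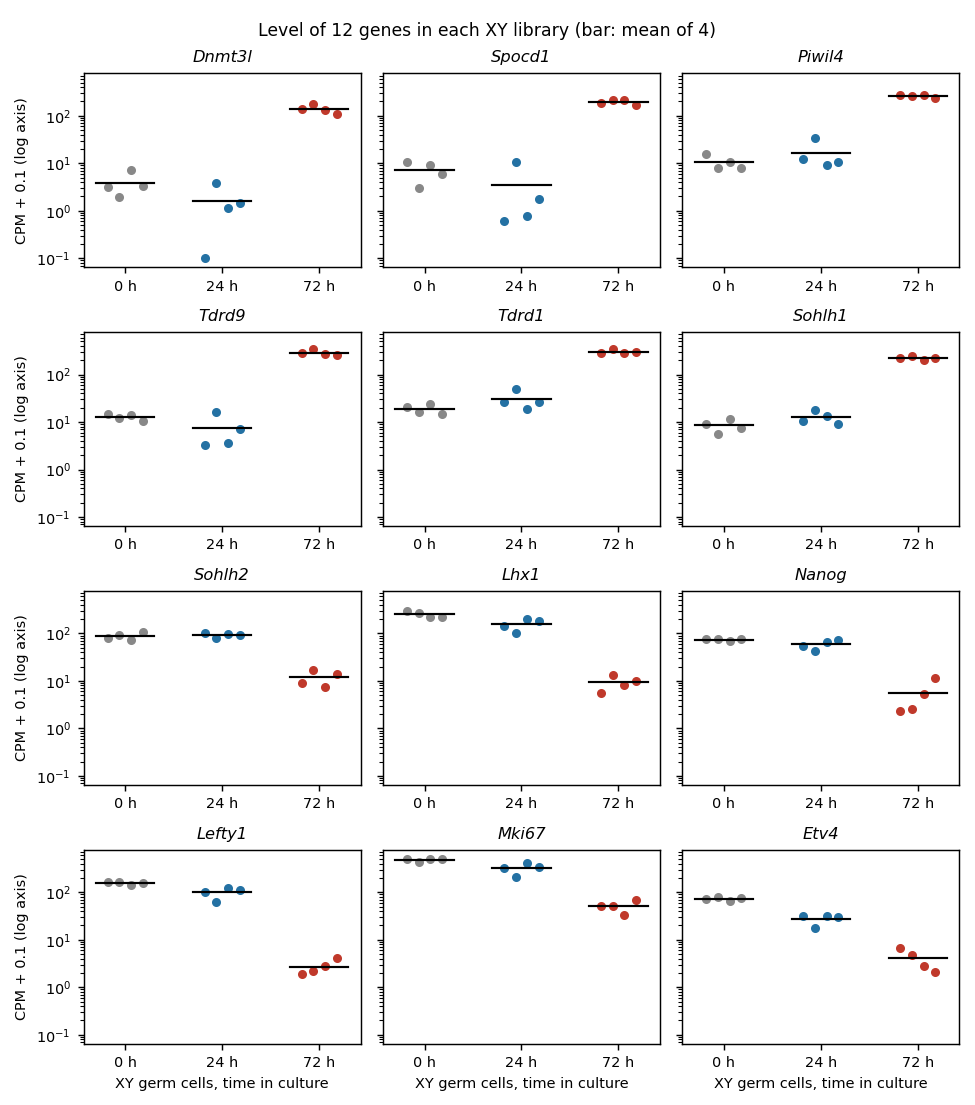
CPM (log axis, with 0.1 added so that libraries at 0 can be drawn) of 12 genes in each XY library at 0 h, 24 h DMSO and 72 h DMSO, 4 points per time, with a bar at the mean. In the upper rows Dnmt3l, Spocd1, Piwil4, Tdrd9, Tdrd1 and Sohlh1 lie higher at 72 h than at either earlier time, and in the lower rows Sohlh2, Lhx1, Nanog, Lefty1, Mki67 and Etv4 lie lower, with no overlap between 24 h and 72 h.

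Most tested factors that make piRNAs in the cytoplasm were higher at 72 h, and some, such as Mov10l1, Ddx4 and Gtsf1, are also in the nuclear list. Of 22 listed genes 21 could be tested, and 14 were higher, none was lower and 7 did not pass, with a median log2 fold change of 1.23, against 16.0% higher and 11.3% lower of all genes. Inside pool 2, 16 were higher and 1 was lower, against 16.6% and 11.6%. Tdrd1, a Tudor protein that organises PIWI proteins in germ granules, was at 27.0, 49.0, 18.9 and 26.0 CPM at 24 h and 278, 346, 282 and 295 CPM at 72 h, 11.1-fold higher. Piwil2 (MILI), which makes the primary piRNAs of this stage, was at 102, 122, 108 and 113 CPM and then 386, 459, 383 and 427 CPM, 3.71-fold higher (FDR = 1.02e-13). Henmt1, the methyltransferase that protects piRNA ends, went from 0, 2.08, 1.38 and 0.812 CPM to 30.0, 23.8, 28.6 and 18.6 CPM. In all 3 genes the libraries of the 2 times were fully separated. Piwil1 (MIWI), best known from postnatal spermatogenesis, rose 8.48-fold, from 6.76 ± 3.55 to 51.2 ± 12.2 CPM. The helicase Mov10l1, which feeds precursor transcripts to PIWI proteins, rose 4.03-fold (158 ± 31.4 to 609.6 ± 56.3 CPM), and the co-chaperone Fkbp6 4.94-fold (174 ± 42.3 to 809 ± 20.2 CPM). Other members were not called. Tdrd5, a Tudor protein of the same granules, was at 145 ± 21.4 CPM at 24 h and 181 ± 13.499 CPM at 72 h (FDR = 1), and Tdrkh and Tdrd12 did not pass either.

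Of 15 tested members of the DNA methylation list 3 were higher, 2 were lower and 10 did not pass, close to the 16.0% higher and 11.3% lower of all genes, and the median of 0.02 was that of all genes. The de novo methyltransferase Dnmt3a was at 116, 171, 133 and 136 CPM at 24 h and 496, 554, 546 and 547 CPM at 72 h, 3.96-fold higher (FDR = 3.23e-17), and 1.46 higher on the log2 scale inside pool 2. Dnmt3b, its paralogue, was at 23.1 ± 3.48 and 35.6 ± 9.92 CPM, which was not called here (FDR = 1) but was called inside pool 2. The oxidative enzymes of demethylation parted, with Tet3 rising 6.03-fold (10.3 ± 3.80 to 61.0 ± 16.8 CPM). Tet1 was at 564, 403, 639.5 and 556 CPM at 24 h and at 76.5, 60.2, 70.6 and 113 CPM at 72 h, and fell by 2.83 on the log2 scale (FDR = 4.97e-17). Maintenance methylation differed less. Dnmt1 was at 269 ± 52.7 and 180.2 ± 11.5 CPM (FDR = 0.882) and its cofactor Uhrf1 at 131 ± 15.49 and 70.7 ± 13.51 CPM (FDR = 0.103, and 0.0403 without 24 h replicate 5), with Uhrf1 groups that did not overlap but 63.8 ± 13.2 CPM in the 24 h FGFRi libraries of pool 2.

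Of 30 genes of male germ cell fate, 13 were higher, 6 were lower and 11 did not pass, with a median log2 fold change of 0.60, against 16.0% higher and 11.3% lower of all genes. Inside pool 2 15 were higher and 7 lower (16.6% and 11.6% of all genes), and several of the piRNA genes above are among them. The RNA-binding factors that set male fate were not called. Nanos2, the translational repressor that holds XY germ cells on the male path, was at 11.9, 37.5, 13.8 and 24.1 CPM at 24 h and at 27.8, 28.8, 26.6 and 25.9 CPM at 72 h, so the groups overlapped and no difference was called (FDR = 1). Its partner Dnd1 was at 205 ± 58.5 and 313 ± 46.2 CPM (FDR = 0.388), and Nanos3 at 86.9 ± 35.4 and 59.6 ± 13.0 CPM (FDR = 1). Dppa4, a marker of the committed male germ cell, was at 472 ± 117 and 794 ± 81.9 CPM and missed the threshold (FDR = 0.0624), although its groups did not overlap. It was called without 24 h replicate 2 (FDR = 0.0494), 24 h replicate 3 (0.00754) or 72 h replicate 2 (0.037).

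Factors of the later spermatogonial lineage split. Sohlh1, a helix-loop-helix factor of spermatogonial differentiation, was at 10.4, 17.7, 13.4 and 8.93 CPM at 24 h and at 228, 248, 200.4 and 224 CPM at 72 h, 20.5-fold higher (FDR = 1.03e-18). Its partner Sohlh2 went the other way, from 104, 78.7, 99.0 and 94.1 CPM to 8.95, 16.7, 7.32 and 13.9 CPM, an 8.34-fold fall (FDR = 1.65e-13). The log2 fold changes inside pool 2 were 4.42 and -2.85, so the opposite directions of the pair stood there too. Nxf2, an X-linked mRNA export factor of germ cells, had the largest gain in CPM of any called gene, from 21.8, 123.5, 39.9 and 31.1 CPM to 925, 961, 1047 and 975 CPM. The X-linked homeobox gene Rhox10, which promotes the step to spermatogonial stem cells, rose 10.2-fold (10.4 ± 8.93 to 79.0 ± 14.1 CPM), and Uchl1, a ubiquitin hydrolase marking spermatogonia, rose 3.24-fold to 267 ± 22.6 CPM.

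Other genes of the male germ cell fate list follow, and its members Etv5 and Ret are given with the FGF genes below. Gfra1, the receptor subunit for GDNF, had 10 counts in all 24 h libraries and 36 in all 72 h libraries (0.943 ± 0.600 and 4.67 ± 1.13 CPM, FDR = 0.029), and Zbtb16 (PLZF), a stem cell repressor, rose 2.55-fold from 8.64 ± 2.68 to 22.4 ± 3.60 CPM (FDR = 0.0402). Both calls depended on single libraries, with an FDR of 0.103 for Gfra1 and 0.18 for Zbtb16 without 24 h replicate 4, of 0.0682 and 0.0955 without 24 h replicate 5 and of 0.0827 and 0.0935 without 72 h replicate 2, and for Zbtb16 also without 72 h replicate 4 (0.0567) or 6 (0.0735). Lhx1, a GDNF-responsive homeobox factor, was at 143, 101, 199.8 and 186 CPM at 24 h and at 5.37, 13.4, 7.99 and 9.95 CPM at 72 h, an 18.4-fold fall (FDR = 6.58e-15). Dmrt1, a regulator of pluripotency and mitosis in germ cells, fell 2.31-fold (154 ± 20.5 to 69.3 ± 16.1 CPM), and the receptor Kit 2.68-fold (68.5 ± 25.6 to 26.0 ± 6.07 CPM). Id4, a factor of the stem cell pool, was not called (63.0 ± 10.9 and 75.9 ± 15.48 CPM).

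Most tested genes of the pluripotency network were lower at 72 h. Of 24 tested members none was higher, 16 were lower and 8 did not pass, with a median log2 fold change of -1.98, against 11.3% lower of all genes, and inside pool 2 17 were lower and 2 were higher (11.6% and 16.6% of all genes). The whole list summed to 0.502 to 0.579% of the counts at 24 h and 0.208 to 0.247% at 72 h. Nanog, a core factor of the network, was at 53.9, 42.2, 66.0 and 73.3 CPM at 24 h and at 2.24, 2.51, 5.33 and 11.3 CPM at 72 h, a 15.1-fold fall (FDR = 1.18e-10). Sox2, its partner, was at 202, 179.7, 237 and 238 CPM and then 40.7, 35.9, 33.3 and 56.4 CPM, a 5.41-fold fall (FDR = 1.13e-13). Both genes were lower in every 72 h library than in any 24 h library. Tdh, the threonine dehydrogenase of naive stem cells, fell 17.1-fold (131 ± 24.6 to 8.49 ± 4.57 CPM), and L1td1, an RNA-binding protein derived from a LINE-1 element, 26.2-fold (97.9 ± 55.3 to 3.94 ± 1.96 CPM). The germ cell specifiers Prdm1, Prdm14 and Tfap2c fell by 2.04, 2.43 and 1.96 on the log2 scale. Dppa5a and Dppa3, short transcripts of primordial germ cells, had the largest losses in CPM of the called genes along with histone H2ac24, Dppa3 from 1995 ± 462 to 871 ± 146 CPM and Dppa5a from 1026 ± 131 to 144 ± 14.8 CPM.

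The other 8 members of the network were not called. Pou5f1 was at 105, 99.5, 78.0 and 97.4 CPM at 24 h and at 57.7, 62.3, 64.6 and 63.0 CPM at 72 h, groups that did not overlap but whose difference was not called against a fold of 1.5 (log2 -0.63 ± 0.13, FDR = 0.748). Inside pool 2 it was called lower (log2 -0.96). Sall4, a zinc-finger factor of germ cells and stem cells, was at 393 ± 41.3 and 269 ± 57.6 CPM (FDR = 1), Lin28a, which blocks let-7 maturation, at 57.5 ± 10.0 and 39.7 ± 6.59 CPM (FDR = 1), and Utf1 at 588 ± 105 and 325 ± 44.8 CPM (FDR = 0.0709, and 0.0114, 0.0231 and 0.0483 without 24 h replicate 4, 24 h replicate 5 or 72 h replicate 4).

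NODAL signalling, which is briefly on in male germ cells through an autocrine loop, was lower at several steps from ligand to target. Of 16 tested genes 8 were lower, 1 was higher and 7 did not pass (median -1.23), where 11.3% of all genes were lower and 16.0% higher, and the counts inside pool 2 were also 8, 1 and 7. The ligand Nodal was at 3.63, 3.13, 8.60 and 9.74 CPM at 24 h and at 0, 0.836, 0.666 and 0.664 CPM at 72 h, with 74 counts against 4 (FDR = 0.000258). Its co-receptor, listed as Tdgf1 and matched after its values were seen under the current symbol Cripto, was at 9.23 ± 4.07 and 0.448 ± 0.895 CPM (FDR = 7.9e-06). It was not called inside pool 2, where the 24 h FGFRi libraries held 0.743 ± 1.16 CPM. The feedback antagonists Lefty1 and Lefty2 were the targets with the largest falls. Lefty1 was at 101, 60.9, 126 and 109.6 CPM at 24 h and at 1.79, 2.09, 2.66 and 3.98 CPM at 72 h, a 38.1-fold fall (FDR = 2.65e-12), and 29.2-fold for Lefty2 (75.0 ± 17.9 to 2.41 ± 0.613 CPM). The homeobox gene Otx2 fell 24.9-fold (37.4 ± 11.4 to 1.31 ± 0.542 CPM). Of the mediators, Smad3 fell 3.31-fold (14.7 ± 2.61 to 4.43 ± 0.308 CPM), while Smad2 and Smad4 did not pass. The DNA-binding partner Foxh1 had 47 counts at 24 h and 2 at 72 h, a 24 h to 72 h ratio of 17.3 (95% counting interval 4.52 to 147). Inhba, a subunit of activin, was the member called higher (9 and 55 counts), with groups that overlapped.

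BMP targets, which mark the signal that favours the female path, had 2 higher, 3 lower and 7 of 12 not passing, where 16.0% of all genes were higher and 11.3% lower. Id3 fell 4.99-fold (39.4 ± 8.01 to 8.01 ± 3.60 CPM) and was not called inside pool 2. Smad9 and Msx2 were called higher on few counts, 3 against 29 and 2 against 21, with ratios of 13.2 (4.08 to 67.5) and 14.3 (3.5 to 126). For Msx2 the 72 h libraries were uneven, at 4.03, 4.18, 0.666 and 0.664 CPM, and it was not called without 24 h replicate 2 (FDR = 0.0508), 72 h replicate 2 (0.0946) or 72 h replicate 4 (0.0807), nor inside pool 2 (0.0536).

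Of the transcripts of FGF, ERK and RET signalling that were called, more were lower than higher at 72 h, and the counts differed with the 24 h germ cells used. Of 27 tested genes 13 were lower, 2 were higher and 12 did not pass (median -1.06), against 11.3% lower and 16.0% higher of all genes. Against the FGFRi germ cells of pool 2, 6 were lower, 5 were higher and 16 did not pass (median -0.10), where 11.6% of all genes were lower and 16.6% higher, which compares DMSO with an inhibitor of this very pathway. Dusp4, a phosphatase that ends ERK activity, was at 60.7, 38.03, 62.6 and 74.4 CPM at 24 h and at 1.79, 1.67, 1.33 and 3.98 CPM at 72 h, a 28.4-fold fall (FDR = 2.52e-10). The ETS factor Etv1 was at 57.5, 35.4, 79.8 and 51.9 CPM and then 2.69, 3.34, 3.99 and 0.664 CPM, a 20.5-fold fall (FDR = 7.11e-10). Inside pool 2 this fall was not called (log2 -0.85, FDR = 0.664), with 4.64 ± 2.04 CPM in the FGFRi cells. Its relatives Etv4 and Etv5 fell 6.94-fold (27.9 ± 7.19 to 3.99 ± 2.12 CPM) and 5.9-fold (127 ± 31.5 to 21.8 ± 1.96 CPM).

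Etv4 had 0 CPM in every 24 h FGFRi library and was higher at 72 h in that comparison (log2 3.60), the reverse of its fall against DMSO. The feedback inhibitors Spry4 and Spry2 fell by 3.19 and 1.97 on the log2 scale and Dusp6 by 1.96, but against FGFRi none of them was called, with the inhibited germ cells at 0.562 ± 0.812, 8.93 ± 4.17 and 7.92 ± 5.18 CPM. Ret, the signalling receptor for GDNF, was at 28.5, 26.0, 36.8 and 31.6 CPM at 24 h and at 20.6, 22.6, 24.0 and 23.2 CPM at 72 h, a difference that was not called (FDR = 1), and was 4.51 higher on the log2 scale than in the FGFRi cells, where it was at 1.37 ± 1.58 CPM. Receptors differed among themselves, with Fgfr2 falling 6.32-fold (15.6 ± 7.21 to 2.32 ± 1.02 CPM) and Fgfr1 at 33.0 ± 10.3 and 44.7 ± 1.02 CPM (FDR = 1). Mapk3, which encodes the kinase ERK1, rose 3.67-fold (37.4 ± 9.56 to 131 ± 20.4 CPM). The immediate-early genes Egr1 and Fos, which also follow handling of the tissue, were not called (30.9 ± 10.99 and 42.3 ± 13.7 CPM for Egr1, 24.9 ± 2.22 and 30.6 ± 4.81 CPM for Fos).

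**Figure D3:**
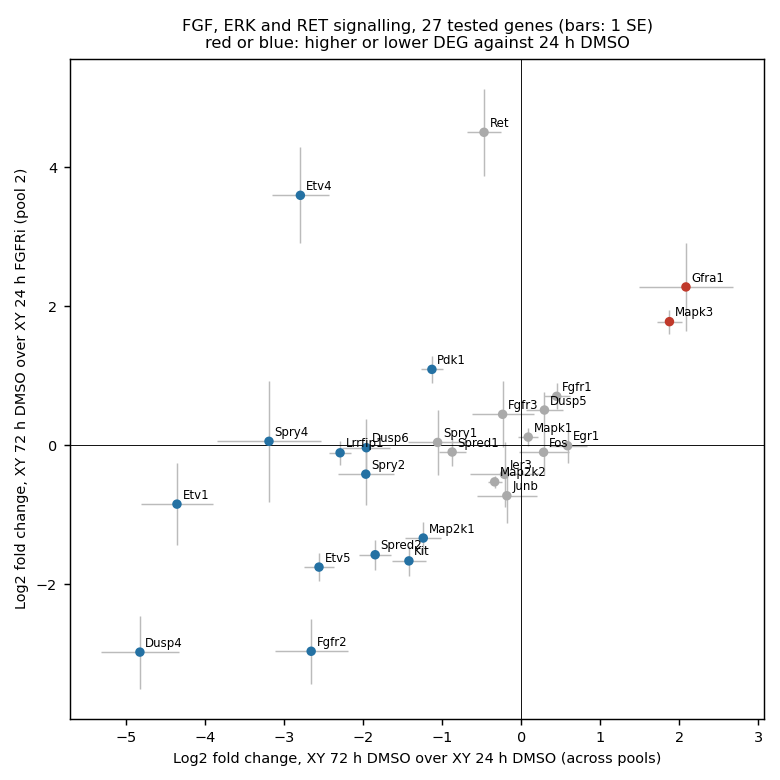
Log2 fold change of XY 72 h DMSO over XY 24 h DMSO (x axis, across pools) and over XY 24 h FGFRi (y axis, within pool 2) for the 27 tested genes of FGF, ERK and RET signalling, with bars of 1 SE. Both axes hold the same 72 h libraries, and Etv4, Ret and Pdk1 lie below 0 on the x axis and above 0 on the y axis, at 3.60, 4.51 and 1.09.

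Of 74 genes of DNA replication and mitosis 44 were lower, 1 was higher and 29 did not pass, with a median log2 fold change of -1.06, where 11.3% of all genes were lower and 16.0% higher. Inside pool 2, 30 were lower and 1 was higher, where 11.6% of all genes were lower and 16.6% higher. The list held 0.968 to 1.37% of the counts at 24 h and 0.669 to 0.744% at 72 h. Mki67, the proliferation antigen, was at 325, 205, 409.8 and 341 CPM at 24 h and at 50.6, 51.0, 33.3 and 67.0 CPM at 72 h, a 6.57-fold fall (FDR = 1.09e-14). Rrm2, the ribonucleotide reductase subunit of S phase, fell 8.87-fold, from 105, 50.5, 115 and 84.9 CPM to 13.0, 5.43, 14.0 and 9.29 CPM. In both genes replicate 3 was the lowest 24 h library and still above all 72 h libraries. The mitotic kinases Cdk1 and Plk1 fell 5.34-fold (72.2 ± 14.4 to 13.3 ± 4.55 CPM) and 5.9-fold (62.0 ± 21.2 to 10.7 ± 3.30 CPM), and cyclin Ccnb1 3.63-fold (464 ± 56.0 to 129 ± 23.5 CPM). Of the replication licensing complex, Mcm2 fell 2.89-fold (296 ± 27.1 to 102 ± 8.76 CPM). Top2a, the topoisomerase of dividing cells, fell 2.27-fold and remained at 473 ± 55.7 CPM at 72 h, from 1062 ± 174 CPM. The phosphatase Cdc25b was the member that rose, from 7.43 ± 0.686 to 25.6 ± 2.94 CPM (FDR = 0.000252).

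A list of cell cycle regulators held CDK inhibitors, the retinoblastoma family and E2F factors together with the cyclins and kinases that drive entry to S phase. Of its 32 tested genes 1 was higher, 7 were lower and 24 did not pass (median -0.46), where 16.0% of all genes were higher and 11.3% lower. The number of lower calls was 5 inside pool 2 and 4 under upper-quartile scaling or in DESeq2. Cdkn1b (p27), the CDK inhibitor tied to arrest of male germ cells, was at 16.6, 22.9, 13.4 and 20.0 CPM at 24 h and at 15.7, 13.8, 15.3 and 19.9 CPM at 72 h, with groups that overlapped (FDR = 1). Cdkn2b (p15) was at 3.95 ± 0.541 and 8.91 ± 3.67 CPM, without overlap but not called (FDR = 0.356), and the retinoblastoma gene Rb1 at 49.4 ± 7.84 and 43.7 ± 2.75 CPM (FDR = 1). Cdkn1a (p21) fell 3.03-fold (60.0 ± 12.4 to 19.8 ± 5.02 CPM). On the side of entry to S phase, cyclin Ccne1 was at 24.4, 17.2, 32.3 and 22.7 CPM and then 5.82, 0.836, 3.99 and 4.64 CPM, a 7.12-fold fall (FDR = 1.23e-05, and a log2 fold change of -2.19 in place of -2.83 without 72 h replicate 4), and the repressor E2f8 fell 9.51-fold. E2f6, the E2F family member that represses germline and E2F targets, was the one called higher (21.3 ± 4.33 to 50.6 ± 5.53 CPM). Protein levels and phosphorylation, through which these regulators also act, were not measured.

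Meiotic genes rose in part. Of 48 tested genes of meiotic prophase 15 were higher, 1 was lower and 32 did not pass (median 0.57), and in XX germ cells over the same interval 37 were higher and 1 was lower (median 1.62). Background shares were 16.0% higher in XY and 10.3% higher in XX. Stra8, the retinoic acid target that starts meiosis, was at 94.4, 119.8, 106 and 106 CPM at 24 h and at 117, 114, 59.2 and 117 CPM at 72 h, a difference that was not called (log2 -0.07, FDR = 1, and 0.66 with shared-index counts removed, FDR = 0.701), and was at 972 and 696 CPM in the XX groups. Rec8, the meiotic cohesin, was at 36.4 ± 4.25 and 36.8 ± 2.17 CPM (FDR = 1). Dmc1, the strand exchange recombinase, was at 9.31 ± 2.39 and 7.06 ± 1.63 CPM (FDR = 0.956) in XY cells, and in XX cells it was at 44.2 and 209.8 CPM.

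The meiotic genes that rose in XY cells were largely parts of the chromosome axis, the synaptonemal complex and crossover control. Sycp3, an axis component, was at 178, 233, 151 and 181 CPM at 24 h and at 462, 493, 499.9 and 571 CPM at 72 h, 2.77-fold higher (FDR = 6.74e-07). Sycp2, its partner, rose 3.36-fold (66.4 ± 17.9 to 208 ± 22.4 CPM), Hormad1 2.85-fold (17.8 ± 1.79 to 49.0 ± 3.49 CPM) and Tex12, of the central element, 4.95-fold (17.7 ± 5.65 to 79.1 ± 11.2 CPM). Rnf212, which stabilises crossover sites, was at 3.11, 6.77, 3.09 and 2.98 CPM and then 37.6, 36.8, 34.6 and 37.2 CPM, 10.4-fold higher (FDR = 1.78e-09). The cohesin subunit Rad21l had 6 counts at 24 h and 90 at 72 h, and Mei1, needed for meiotic breaks, 4 and 48. Sycp1, the transverse filament, was at 239 ± 53.8 and 318 ± 22.3 CPM (FDR = 1), and Psmc3ip, a recombination cofactor, was the member that fell (38.3 ± 5.37 to 18.1 ± 5.48 CPM, FDR = 0.0193, and 0.243 without 72 h replicate 2 or 0.196 inside pool 2).

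Nuclear genes of oxidative phosphorylation were lower in part. Of 81 tested subunits none was higher and 25 were lower (median -0.51), against 16.0% and 11.3% of all genes, and inside pool 2 34 were lower and 1 was higher, against 11.6% and 16.6%. Their summed share was 2.17 to 2.49% of the counts at 24 h and 1.73 to 1.83% at 72 h. Atp5pb, a stalk subunit of ATP synthase, was at 472, 327, 381 and 383 CPM at 24 h and at 97.6, 73.6, 82.5 and 109 CPM at 72 h, a 4.4-fold fall (FDR = 5.61e-16). Ndufa4, a subunit of the respiratory chain, fell 2.56-fold (459 ± 78.1 to 179.9 ± 22.5 CPM). The 13 genes encoded by mitochondrial DNA gave no call in either direction (median -0.14), at 0.812 to 1.08% and 0.959 to 1.18% of the counts. The 83 ribosomal protein genes were also mostly not called, with 2 higher and 8 lower (median -0.20), and inside pool 2 2 were higher and 15 lower (median -0.45), against 16.6% and 11.6% of all genes.

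In glycolysis the subunits of lactate dehydrogenase moved in opposite directions. Ldha, the lactate dehydrogenase subunit that favours lactate production, was at 28.0, 33.3, 23.4 and 20.3 CPM at 24 h and at 111, 119, 82.5 and 96.9 CPM at 72 h, 4.29-fold higher (FDR = 2.9e-10). Ldhb, the other subunit, was at 445, 408, 552 and 468 CPM and then 49.7, 45.6, 55.3 and 53.1 CPM, a 9.23-fold fall (FDR = 9.47e-20). Both shifts held inside pool 2 (log2 1.59 and -3.56). Pfkm and Aldoc rose 2.85-fold and 3.37-fold, Gapdh and Pdha1 fell 2.1-fold and 2.33-fold (Gapdh with an FDR of 0.273 inside pool 2, 0.0538 without 24 h replicate 5 and 0.0512 without 72 h replicate 2), and of the 26 tested genes 3 were higher, 4 were lower and 19 did not pass, against 16.0% higher and 11.3% lower of all genes. Inside pool 2 6 were higher and 3 lower (median 0.46 in place of 0.11), and upper-quartile scaling gave 5 higher. Pkm, the pyruvate kinase, was at 643 ± 64.8 and 637 ± 35.1 CPM (FDR = 1). Genes with near-identical pseudogenes, such as Gapdh and Ldha, are uncertain where the counting could split their reads.

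**Figure D4:**
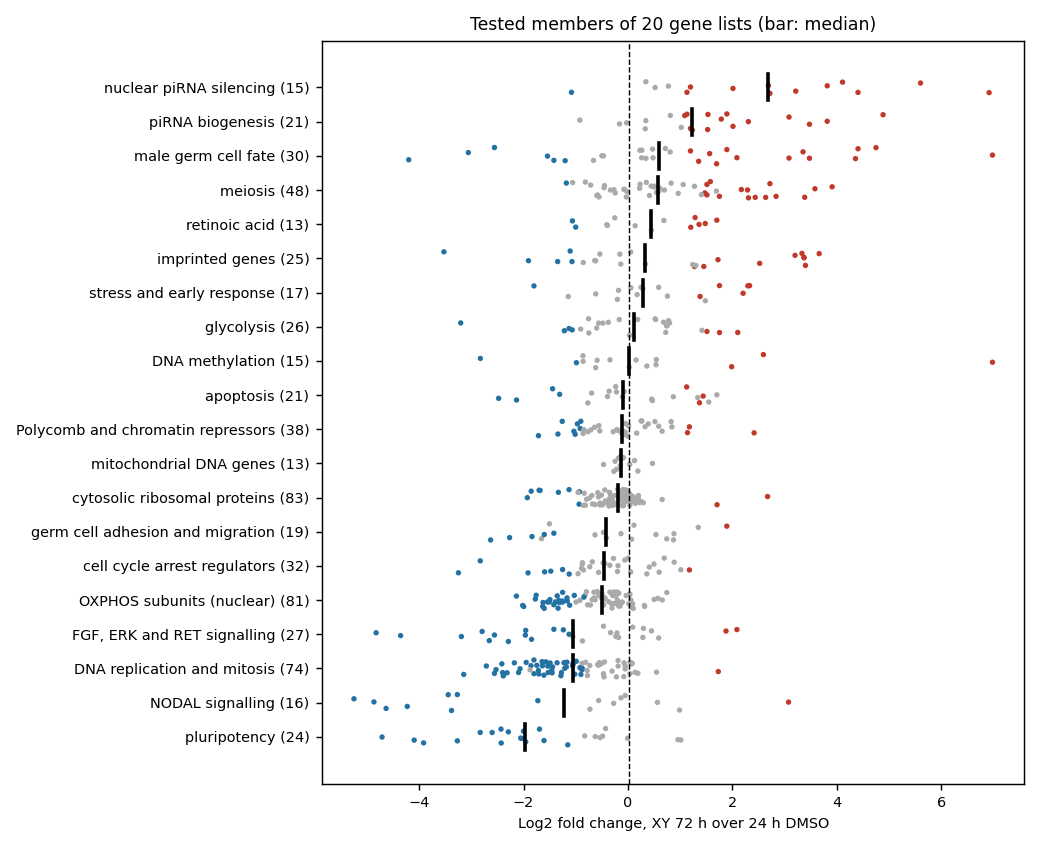
Log2 fold change at 72 h over 24 h (x axis) of every tested member of 20 gene lists (rows), with red points for higher DEGs, blue for lower DEGs and grey for genes not called, and a black bar at the median of each list. The bars run from 2.69 for nuclear piRNA silencing to -1.98 for pluripotency, and the dashed line marks the median of all tested genes, 0.02.

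Chromatin repressors gave 3 higher, 8 lower and 27 not passing of 38 (median -0.11), against 16.0% higher and 11.3% lower of all genes. The excess of lower calls was not stable, with 4 higher and 3 lower inside pool 2, and 4 and 4 under upper-quartile scaling (median 0.06) and in DESeq2. Kdm1b, an H3K4 demethylase needed for imprint establishment in oocytes, was at 27.5, 27.6, 24.8 and 29.8 CPM at 24 h and at 142, 183, 132 and 147 CPM at 72 h, 5.33-fold higher (FDR = 8.22e-14), and Ehmt2 (G9a), an H3K9 methyltransferase, rose 2.2-fold (164 ± 13.2 to 357 ± 15.9 CPM). Ezh2, the catalytic subunit of Polycomb complex PRC2, fell 2.05-fold (173 ± 40.5 to 84.7 ± 3.78 CPM) and was not called inside pool 2, and the deacetylase Hdac1 fell 2.4-fold (133 ± 11.5 to 56.0 ± 5.54 CPM).

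Of 25 tested imprinted genes 10 were higher and 5 were lower (median 0.33), against 16.0% and 11.3% of all genes (3 lower under upper-quartile scaling or in DESeq2). The maternally expressed non-coding RNAs of the Dlk1-Dio3 domain rose together. Meg3 was at 12.4, 9.38, 13.8 and 9.20 CPM at 24 h and at 62.7, 69.4, 62.6 and 50.4 CPM at 72 h, 5.74-fold higher (FDR = 3.19e-08), Rian rose 10.3-fold (2.54 ± 0.845 to 26.9 ± 10.2 CPM) and Mirg 12.7-fold (1.09 ± 1.01 to 11.5 ± 4.08 CPM). Grb10 rose 9.18-fold and H19 2.42-fold (FDR 0.0892 without 24 h replicate 5). The paternally expressed Snrpn was at 83.0, 68.8, 79.1 and 82.0 CPM and then 4.92, 4.60, 11.98 and 9.95 CPM, an 11.5-fold fall (FDR = 1.69e-13), and Peg3 fell 2.11-fold. Peg10, also paternally expressed, rose 10.4-fold on 13 and 98 counts.

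Genes of cell death and of adhesion were mixed. Trp53 (p53) was at 227, 135, 247 and 233 CPM at 24 h and at 34.0, 38.04, 37.9 and 47.8 CPM at 72 h, a 5.57-fold fall (FDR = 8.11e-15), and the effector Bax fell 2.48-fold (132 ± 17.2 to 55.9 ± 11.5 CPM). Bcl2l1, a survival factor, rose 2.18-fold (52.5 ± 8.77 to 108 ± 8.88 CPM, FDR 0.101 without 24 h replicate 5) and the initiator caspase Casp9 2.71-fold, and of 21 tested genes 3 were higher and 4 were lower, near the 16.0% and 11.3% of all genes. Pmaip1 (NOXA) fell 4.4-fold against DMSO (66.5 ± 4.56 to 16.5 ± 5.45 CPM), but was not called against the FGFRi cells, which held 7.86 ± 3.06 CPM. The epithelial adhesion genes Cdh1, Cdh3 and Epcam fell 4.82-fold, 6.21-fold and 3.58-fold, and Ncam1 rose 3.71-fold (10.1 ± 4.34 to 31.1 ± 9.49 CPM). Of 19 tested adhesion genes 1 was higher and 5 were lower, against the same shares.

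Retinoic acid genes gave 5 higher and 2 lower of 13 (median 0.45), where 16.0% of all genes were higher and 11.3% lower, with the binding protein Crabp1 2.79-fold higher (16.9 ± 4.72 to 49.1 ± 6.96 CPM) and the receptor Rara 2-fold lower (53.7 ± 11.3 to 28.3 ± 8.78 CPM). The call of Rara was lost without 24 h replicate 4 or 5 and without 72 h replicate 2 or 4 (FDR 0.135 to 0.234). Inside pool 2, 1 gene of this list was higher and 1 lower (16.6% and 11.6% of all genes), and none was lower under upper-quartile scaling or in DESeq2. Stress genes gave 5 higher and 1 lower of 17, the heat shock gene Hspa1b among them (3.63 ± 2.26 to 16.7 ± 3.64 CPM).

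Among the 15 DEGs with the largest rise, several are in none of the lists above. Cyp2c55, a cytochrome P450, had 1 count in all 24 h libraries and 198 in all 72 h libraries, a ratio of 270.0 (95% counting interval 47.8 to 10700). The phospholipase Plb1 had 0 and 139 counts, at least 63.1-fold higher against a floor of 3 counts over the 24 h group, and the cardiac myosin Myh7 2 and 208 counts (ratio 142, 38.7 to 1180). Nme8, a gene of cilia and the sperm flagellum, and Fhad1 went from 0.846 ± 0.933 to 37.4 ± 8.97 CPM and from 1.42 ± 1.08 to 60.0 ± 11.8 CPM. For Plb1 and Myh7 every 72 h library was above 14 CPM and every 24 h library was below 1 CPM. In all, 34 of the higher and 5 of the lower DEGs had 0 counts in the lower group.

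Among the 15 DEGs with the largest fall, Khdc3, a member of the maternal complex of oocytes and embryos, was at 26.4, 24.5, 31.3 and 29.2 CPM at 24 h and at 1.79, 0, 0 and 0.664 CPM at 72 h, a 44.7-fold fall (FDR = 1.12e-09, log2 fold change -5.48, and -6.15 without 72 h replicate 2). Of abundant genes, the mitochondrial chaperonin Hspd1 fell 3.03-fold (984 ± 157 to 321 ± 32.2 CPM).

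By kind of gene, protein-coding genes were higher in 17.6% and lower in 11.7% of 12419 tested, and lncRNA genes in 20.9% and 8.96% of 681. Processed pseudogenes, whose reads can belong to their parent genes, were higher in 26 and lower in 140 of 1167. On the Y chromosome 7 of 18 tested genes were higher and 1 was lower, against 16.0% and 11.3% of all genes, but 5 of the 7 are copies of 1 family. These 5 tested copies of the Rbmyf family, which encode germ cell RNA-binding proteins and share reads, rose by 3.48 to 4.60 on the log2 scale, with 51 counts at 24 h and 673 at 72 h in all. Usp9y was at 2.07, 5.21, 1.38 and 2.16 CPM and then 40.3, 24.7, 31.3 and 24.6 CPM, 12.8-fold higher (FDR = 4.9e-08), while Kdm5d was at 26.5 ± 6.15 and 15.3 ± 5.06 CPM (FDR = 0.282).

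The XY change was set against the XX change over the same interval and pools. The interaction was called for 3979 genes (26.1%), with 2465 in which XY cells gained more or lost less (16.2%) and 1514 the other way (9.93%). Fitted to its 16 libraries with the replicate number within each sex as a block, the interaction was called for 1954 genes. Only replicate numbers found at both times inform that fit, and in XX cells this is number 4 alone. In XX cells 10.3% of all genes were higher at 72 h and 11.9% were lower. Of the 2436 genes higher in XY cells at 72 h, 376 were also higher in XX cells, 174 were lower and 1886 were not called there. The interaction was positive in 1383 of them and negative in 11. Of the 1728 lower genes, 488 were also lower in XX cells and 37 were higher, and the interaction was negative in 580 and positive in 23. The XY change by which these genes were chosen is part of the interaction, so its lean was favoured in advance. The nuclear piRNA genes had a positive interaction in 10 of 15, and the XX change of this list was higher in 3 and lower in 1. Piwil4 fell in XX cells, from 22.8 to 1.68 CPM (log2 -3.77), and Dnmt3l was at 9.42 and 3.76 CPM there (not called). XX 24 h libraries shared indexes with XY 72 h FGFRi libraries and XX 72 h libraries with XX 0 h libraries. With shared-index counts removed, the XX log2 fold change was -2.26 for Piwil4 (FDR = 0.0352), 2.19 for Dnmt3l (FDR = 0.121) and 2.72 for Spocd1 (FDR = 0.0633, against -1.57 with them), and the interactions of the 3 genes stayed called at 7.11, 5.90 and 5.64. By contrast the pluripotency list fell in both sexes, with 21 of 24 lower in XX cells (median -2.84, where 11.9% of all genes were lower) against 16 in XY cells, no negative interaction and 6 positive ones, among them Pou5f1, which was at 55.7 and 8.34 CPM in XX cells. Meiotic genes had a negative interaction in 18 of 48 and a positive one in 2. Of the 74 replication and mitosis genes 29 were lower, 2 were higher and 43 were not called in XX cells, with 14 negative and 5 positive interactions, Mki67 being one of the negative ones at 303 and 371 CPM in XX cells.

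**Figure D5:**
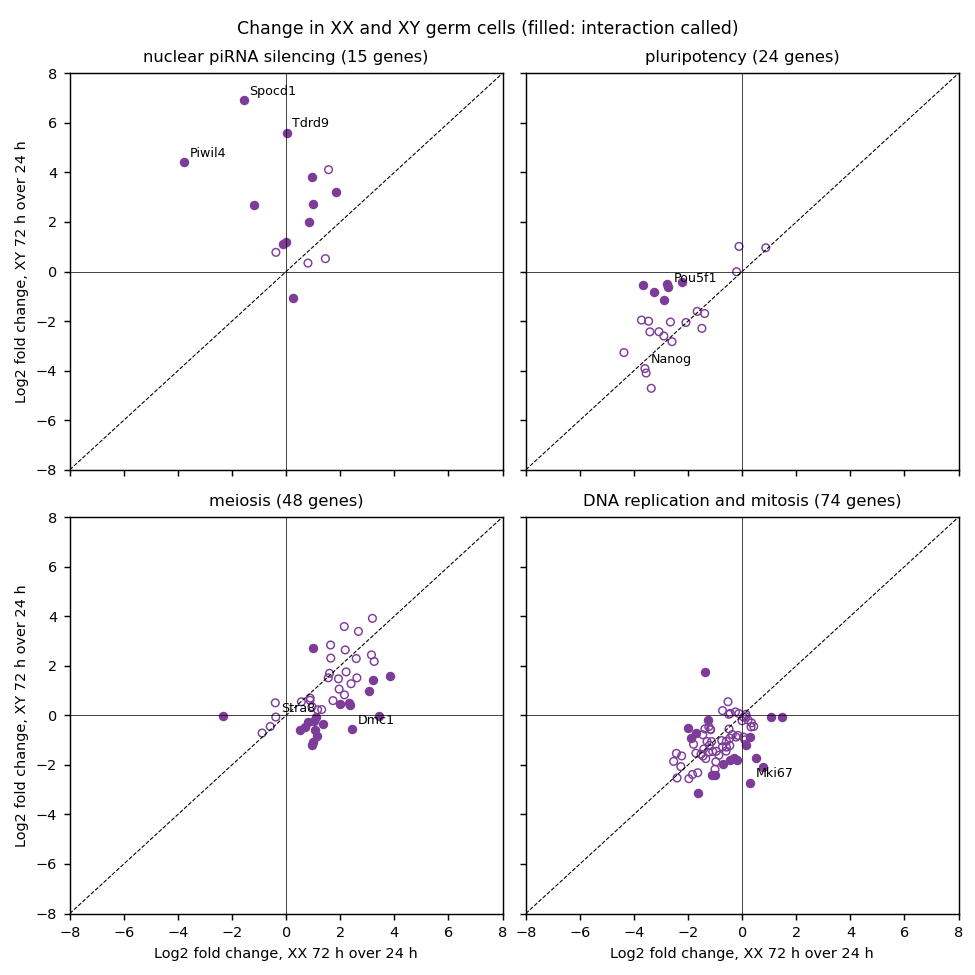
Log2 fold change from 24 h to 72 h in XX germ cells (x axis) and XY germ cells (y axis) for tested genes of 4 lists, nuclear piRNA silencing, pluripotency, meiosis, and DNA replication and mitosis, with filled points where the interaction was called and open points where it was not. Points above the diagonal gained more in XY cells, as Piwil4, Tdrd9 and Spocd1 do, and most meiotic genes lie to the right of 0 on the x axis.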

How the data were processed

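RNA of sorted germ cells was primed at the poly(A) tail and tagged with unique molecular identifiers (UMIs). The authors deposited UMI-collapsed counts per gene (GRCm39), after alignment with Rsubread and counting over exons with scPipe; the annotation release is not given in the sources used here. The 42422 genes and 40 libraries were used as deposited. Genes that passed filterByExpr (at least 10 counts, 15 in total) were kept, 15252 in all, with 99.2% of the counts. TMM scaling (edgeR 4.0.16), voom with quality weights and treat against a fold change of 1.5 (limma 3.58.1, R 4.3.3) gave Benjamini-Hochberg adjusted p-values (FDR) over all genes tested, called under 0.05, from 1 mean per group over the 40 libraries. CPM are TMM-scaled. Each library is a set of pooled gonads, so p-values measure only the spread between these samples, which may in part be technical. Intervals and the floor of 3 counts cover counting error only. Data were also simulated for XY 72 h v 24 h DMSO with 15252 genes. Log2 changes of 1.5, 2 and 3 were called there in 31 of 66, 61 of 67 and 65 of 67 genes. Of the 15052 unchanged genes in those data 0 were called. The rate of false calls in the measured libraries, where pool follows time, was not tested.

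The genes, lists and tests were chosen with earlier results of these data known. Genes named are members of the lists, and the DEGs with the largest fold change (15 each way, groups not overlapping) or the largest difference in CPM (10 each way). Cripto was added under its current symbol after its values were seen. Some genes that this rule takes in are not reported here. Alternatives were other scalings, filters, tests (DESeq2 1.42.0 among them), depths, library sets and 24 h groups. Promoter windows came from GRCm39 and GENCODE M39 start sites.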

Additional observations from a re-analysis of the deposited data

Results flagged for a closer look

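For 88 of the 162 genes named above, the change from 24 h to 72 h differed between XY and XX germ cells by the test of the difference itself (limma treat on the interaction, FDR under 0.05, 4 libraries in each of the 4 groups). The same test called 26.1% of all genes. Some of the 162 were named for the size of their XY change, which is part of this difference. Values in parentheses are the XY log2 fold change less the XX log2 fold change. Of the male fate genes it was positive for Piwil4 (8.18), Dnmt3l (7.79), Rhox10 (5.10), Sohlh1 (4.45), Nxf2 (4.05), Tdrd1 (3.90), Dppa4 (3.79), Dnd1 (3.73), Piwil1 (3.28), Zbtb16 (3.11), Piwil2 (2.64), Uchl1 (2.31), Dmrt1 (1.38), Id4 (1.28) and Ddx4 (1.21), and negative for Lhx1 (-1.92) and Sohlh2 (-1.77). For Dppa4, Dnd1 and Id4 the difference was called while the XY change alone was not. Other silencing and piRNA genes with a positive difference were Spocd1 (8.49), Tdrd9 (5.57), Henmt1 (4.02), Morc1 (3.88), Gtsf1 (2.86), Fkbp6 (1.97), Mael (1.71), Tex15 (1.35), Mov10l1 (1.17) and Tdrd5 (1.09), while Hells was negative (-1.34). Dnmt3a (2.91) and Tet3 (2.07) were positive.

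Pluripotency genes had positive differences where they differed, namely Sall4 (3.13), Utf1 (2.43), Lin28a (2.31), Pou5f1 (2.11) and Dppa3 (1.73), each with a larger fall in XX cells. NODAL genes were negative, with Otx2 (-3.61), Lefty2 (-3.54), Nodal (-3.44) and Lefty1 (-3.23), as was Etv1 (-6.42). Mapk3 (3.20), Fgfr1 (1.75) and the BMP targets Msx2 (4.97) and Smad9 (3.97) were positive. Of division and arrest genes Cdc25b (3.11) and E2f6 (1.85) were positive, and Mki67 (-3.00), Rrm2 (-1.52), Cdk1 (-1.41) and Top2a (-1.32) negative. The meiotic genes Dmc1 (-2.99), Psmc3ip (-2.14) and Sycp1 (-1.54) were negative and Rec8 (2.31), which fell in XX cells, was positive.

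In metabolism, Aldoc (4.15), Ldha (3.31), Pfkm (1.46) and Pkm (1.05) were positive and Atp5pb (-3.05), Ldhb (-1.69) and Ndufa4 (-1.33) negative. Chromatin genes differed both ways, with Kdm1b (3.24), Ehmt2 (2.32) and Hdac1 (-1.27). Of imprinted genes Mirg (4.10), Rian (3.47), Meg3 (2.83), Peg10 (2.79), Grb10 (2.64) and H19 (1.62) were positive and Snrpn (-1.57) negative. Casp9 (2.05), Ncam1 (1.76) and Crabp1 (2.87) were positive and Pmaip1 (-2.55) negative. The endothelial markers Cdh5 (3.73), Flt1 (3.34) and Egfl7 (2.71) and the blood markers Alas2 (3.47) and Cd68 (3.38) were positive. Outside the lists the values were 8.26 for Cyp2c55, 7.46 for Nme8, 6.77 for Myh7, 5.89 for Plb1, 5.66 for Fhad1, -5.33 for Khdc3 and -1.43 for Hspd1. The call of the difference was lost without 1 library in 13 genes, Alas2, Cdk1, Lefty1, Lhx1, Ncam1, Nodal, Otx2, Peg10, Pmaip1, Rrm2, Snrpn, Tdrd5 and Zbtb16 (FDR 0.0505 to 0.182), without 1 to 10 of the 16 libraries each. Usp9y (4.90) is Y-linked, so its XX values hold only counts that do not come from an XX genome.

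A single library stood apart within its group of 4 by Dixon's criterion in 22 of 324 groups looked at, where chance gives about 1 in 20. Replicate 3 of the 24 h group was the highest for 8 genes, Ddx4 (299.5 CPM), Sycp2 (93.2), Gtsf1 (62.5), Mapk3 (51.6), Piwil4 (33.3), Spocd1 (10.4), Rnf212 (6.77) and Mirg (2.60), all of which were higher still at 72 h, and the lowest for Etv4 (17.2 CPM), which was lower at 72 h. The other 24 h libraries that stood apart were replicate 2 for Id3 (51.3 CPM), replicate 4 for Piwil1 (12.03 CPM), Spry2 (17.2 CPM) and Cyp2c55 (0.344 CPM, its 1 count), and replicate 5 for Pmaip1 (73.3 CPM) and Smad9 (0.812 CPM). At 72 h, replicate 2 stood apart for Pkm (584 CPM), Dnmt3a (496), Rian (42.1) and Cripto (1.79), replicate 4 for E2f8 (1.25 CPM), replicate 5 for Stra8 (59.2 CPM) and replicate 6 for Hspd1 (369 CPM).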

How the results depend on the processing

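Of 3855 recomputed log2 fold changes of the 162 named genes, 3742 kept their side of the threshold and, where called, their direction. Of the rest 57 were no longer called, 48 became called and 8 turned direction in genes called before or after. Genes called in neither case could turn direction within the 3742, as Stra8 did (-0.07, and 0.66 with shared-index counts removed). Of 2457 recomputed interactions of 88 genes, 2353 kept direction and call and 104 were no longer called (62 genes kept both throughout). All 8 turns with a call came from another 24 h group. With XY 24 h FGFRi in place of DMSO the log2 fold change was 3.60 for Etv4, 4.51 for Ret, 1.09 for Pdk1, 0.96 for Pmaip1 and 0.06 for Spry4, and with DMSO, FGFRi and MEKi averaged it was 0.66 for Etv4, 0.34 for Pdk1 and 2.53 for Ret. Testing against no change, with only the observed fold required to pass 1.5, raised the counts of DEGs. The main comparison then gave 7214 (edgeR quasi-likelihood) or 7298 (limma eBayes) in place of 4164, the interaction 7082 or 7215 in place of 3979, and the comparison inside pool 2 7463 or 7523 in place of 4295. Leaving out 1 library at a time gave 3598 to 4291, 3705 to 4073 and 3933 to 4307. Leaving out 1 library moved the fold change of 9 of 129 called named genes by over 1.5 times, with no loss of call. The log2 fold change became -2.19 for Ccne1 without 72 h replicate 4. Without 72 h replicate 2 it became -4.95 for Cripto, -6.15 for Khdc3 and -2.79 for Nodal. Without 24 h replicate 5 it became 7.61 for Dnmt3l, 6.37 for Fhad1, 3.77 for Inhba, 4.34 for Mei1 and 3.97 for Smad9. Fhad1 also moved to 5.11 without 24 h replicate 2 and Nodal to -2.84 without 24 h replicate 5. Inhba moved to 3.75 and 3.74 without 24 h or 72 h replicate 4. Thinning to 1178953 counts per library gave 3016 DEGs, and removing shared-index counts 4576. Upper-quartile scaling moved the median log2 fold change of all genes from 0.02 to 0.19 and DESeq2's size factors moved it to 0.14, with 2930 and 2789 higher against 1280 and 1406 lower; for the interaction upper-quartile scaling gave 2912 and 1152 in place of 2465 and 1514. Small counts in the lists also moved, with 2 pluripotency genes higher under upper-quartile scaling and in edgeR in place of none, 4 in place of 2 DNA methylation genes and 3 in place of 1 meiotic gene lower in edgeR, and 5 in place of 3 apoptosis genes higher there. Replicate numbers did not pair the libraries (r of deviations 0.008, 0.069 and -0.027 for numbers 2, 4 and 5). As a replicate block in the 8 libraries they gave 3328 DEGs, against 3445 without the block, and 1954 for the interaction in its 16 libraries. In that last fit the XX change rested on replicate number 4 alone. Levels near 1 CPM rest on a few counts in libraries of this depth. The cause of these shifts was not tested.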
